A study of Homo sapiens with 16 samples.

Results

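The expressed ZNF zinc finger genes of PANC-1 cells, a human pancreatic ductal carcinoma line, were followed through knockdown of FLASH, NPAT or SLBP and through TGFb treatment. A gene was taken where its symbol was ZNF followed by digits only, ZNF473 left out, and where it reached 3 TPM, a transcript abundance scaled by gene length and depth, in both libraries of untreated, non-transfected cells. The members were thus selected on their measured levels in those 2 libraries. This gave 363 genes of the 477 with such a symbol and of the 58219 genes in the table. RNA was sequenced in 16 libraries, 2 in each of 8 groups: non-transfected cells and cells given siRNA against FLASH, NPAT or SLBP, each without TGFb and with TGFb at 100 ng/ml for 48 h. All cells were PANC-1 with a wild-type genotype label, grown in DMEM with 10% serum. The titles say day 3, while the design text speaks of 4 days. The labels name the controls non-transfected in their titles and mock in their descriptions, and do not say whether they received transfection reagent. There was no group with a non-targeting siRNA, so transfection and loss of the target cannot be told apart in a comparison with these controls, whereas siRNA groups can be compared with each other. Nothing in the labels says that the 2 libraries of a group came from separate cultures, so the p-values measure the spread between these libraries.

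Most ZNF genes encode DNA-binding proteins with tandem C2H2 fingers, small folds in which cysteines and histidines hold a zinc ion and each finger reads a few bases. A large share also carries a KRAB box, which recruits TRIM28 and, through it, the histone methyltransferase SETDB1 and HP1 proteins, so that the bound DNA, often a transposable element, is silenced. In human the family expanded by local duplication, and much of it lies in clusters on chromosome 19. FLASH (gene CASP8AP2) and SLBP act in the 3′ processing of replication-dependent histone transcripts, and NPAT activates transcription of the histone genes.

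The promoters below belong to genes at the extremes of the siRNA comparisons. ZNF420 and ZNF586 had the lowest fold changes after NPAT siRNA, ZNF624 was among the lowest after FLASH and NPAT siRNA, ZNF25 was the lowest after FLASH siRNA and ZNF813 after SLBP siRNA, and ZNF345 and ZNF404 were among the highest after FLASH siRNA, all with TGFb. Each stretch runs from 250 bases before to 50 bases after the RefSeq start of the gene (GRCh38.p14), 5′ to 3′ on the strand of the gene. Capitals mark CCGGAAG, the letters of an ETS factor site, and ACTACA followed by any 3 bases and CCCAG, a long form of the site bound by ZNF143, on either strand.
ZNF420, chr19:37078183-37078482, plus strand: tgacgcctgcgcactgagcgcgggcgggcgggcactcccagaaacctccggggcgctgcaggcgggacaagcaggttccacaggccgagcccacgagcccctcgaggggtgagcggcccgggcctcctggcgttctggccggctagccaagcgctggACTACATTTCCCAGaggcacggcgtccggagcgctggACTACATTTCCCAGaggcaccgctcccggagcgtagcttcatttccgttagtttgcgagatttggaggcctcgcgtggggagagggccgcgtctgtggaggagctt
ZNF586, chr19:57769426-57769725, plus strand: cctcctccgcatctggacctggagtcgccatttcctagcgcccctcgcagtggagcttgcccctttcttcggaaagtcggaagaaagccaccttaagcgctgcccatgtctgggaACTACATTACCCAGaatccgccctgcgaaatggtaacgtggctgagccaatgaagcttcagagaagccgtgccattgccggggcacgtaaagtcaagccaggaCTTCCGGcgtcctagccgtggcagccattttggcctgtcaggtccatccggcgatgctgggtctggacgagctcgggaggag
ZNF624, chr17:16653801-16654100, minus strand: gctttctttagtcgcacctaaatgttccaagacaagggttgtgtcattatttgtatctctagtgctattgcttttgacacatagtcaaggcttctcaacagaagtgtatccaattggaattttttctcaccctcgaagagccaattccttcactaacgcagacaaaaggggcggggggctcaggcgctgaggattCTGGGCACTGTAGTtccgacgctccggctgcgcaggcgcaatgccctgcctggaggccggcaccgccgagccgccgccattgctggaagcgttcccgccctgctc
ZNF813, chr19:53467483-53467782, plus strand: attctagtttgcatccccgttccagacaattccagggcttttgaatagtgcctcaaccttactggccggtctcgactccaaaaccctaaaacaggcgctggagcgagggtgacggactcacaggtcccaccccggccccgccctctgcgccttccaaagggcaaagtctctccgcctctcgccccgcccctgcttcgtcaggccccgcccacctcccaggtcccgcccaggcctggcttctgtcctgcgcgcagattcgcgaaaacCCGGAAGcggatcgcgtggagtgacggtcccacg
ZNF345, chr19:36850626-36850925, plus strand: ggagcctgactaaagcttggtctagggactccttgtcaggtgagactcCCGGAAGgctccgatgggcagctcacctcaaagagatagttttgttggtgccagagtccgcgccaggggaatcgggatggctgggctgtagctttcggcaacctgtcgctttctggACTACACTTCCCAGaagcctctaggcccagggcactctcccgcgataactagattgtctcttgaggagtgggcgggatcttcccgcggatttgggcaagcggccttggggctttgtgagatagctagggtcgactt
ZNF25, chr10:37976598-37976897, minus strand: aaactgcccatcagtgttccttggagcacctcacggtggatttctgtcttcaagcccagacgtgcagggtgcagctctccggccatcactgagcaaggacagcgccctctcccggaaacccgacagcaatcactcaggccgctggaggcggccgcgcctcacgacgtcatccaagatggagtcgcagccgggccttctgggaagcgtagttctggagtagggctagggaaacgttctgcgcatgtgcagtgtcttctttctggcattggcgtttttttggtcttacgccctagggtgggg
ZNF404, chr19:43883915-43884214, minus strand: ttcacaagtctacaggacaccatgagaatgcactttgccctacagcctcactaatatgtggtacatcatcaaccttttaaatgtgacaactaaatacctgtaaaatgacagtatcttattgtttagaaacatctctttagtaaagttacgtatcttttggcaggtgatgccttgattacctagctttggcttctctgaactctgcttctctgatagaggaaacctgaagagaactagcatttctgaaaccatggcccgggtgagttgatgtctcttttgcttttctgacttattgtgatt
ZNF420 carried 2 copies of the long ZNF143 form and no ETS letters, ZNF586 and ZNF345 carried 1 of each, ZNF624 carried 1 ZNF143 form, ZNF813 carried 1 ETS match, and ZNF25 and ZNF404 carried neither. Both strings were frequent in the family: of the 318 members with a RefSeq promoter, 13.8% held the long ZNF143 form and 42.8% held CCGGAAG. Among all 27305 promoters of the table the shares were 1.36% and 10.7%, and among the 8260 promoters of other genes with the same TPM floor they were 2.64% and 20.8%. The shorter ACTACA, which is part of the long form, was in 20.8% of member promoters and in 9.24% of those of other genes with the floor. CCAAT, the site of the NF-Y factor, was in 47.5% and 36.6%. The long form was searched after these promoters had been seen, and the shares are descriptions without a test.

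Total expected counts were 23830118 to 30832499 per library, and 21130 to 24368 genes had counts. The non-transfected libraries had 21130 to 21355 such genes and the siRNA libraries 22704 to 24368, without overlap. The targeted transcripts fell to 20.5% and 21.0% of their level in non-transfected cells for CASP8AP2, to 10.7% and 12.7% for NPAT and to 5.76% and 6.5% for SLBP, without and with TGFb. The ductal carcinoma markers KRT8, KRT18, KRT19 and VIM were at 49.6 TPM or more in all 16 libraries and KRT7 was at 5.6 to 25 TPM. INS was at 0 in all 16 libraries, PTPRC and CD3E were at most at 0.31 TPM, and CD68 was at 34.3 to 233 TPM. The summed endothelial markers were at most at 0.03 TPM in non-transfected libraries and at 0.33 to 6.43 TPM in siRNA libraries, and the summed fibroblast markers were at most at 0.39 TPM and at 0.18 to 8.41 TPM. The mitochondrial share of counts was 9.78% to 9.84% in non-transfected cells and 10.3% to 13.2% after siRNA without TGFb, and 6.96% to 9.34% and 8.81% to 10.8% with TGFb. The part of these gene numbers, markers and shares in the results was not tested. The labels name no batch.

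The 363 genes ranged from a mean of 2.39 to 182 TPM over the 16 libraries, with a median of 9.57 TPM. ZNF146, a protein made almost only of fingers, was the highest at 182 TPM. ZNF207, which helps the spindle checkpoint protein BUB3 reach kinetochores, followed at 158 TPM, and ZNF593, a factor of ribosome maturation, at 127 TPM. ZNF706 stood at 115 TPM and ZNF664 at 105 TPM. Only 12 of the 363 had a mean of 50 TPM or more. Just inside the floor were ZNF20 at 3.02 and 3.13 TPM, ZNF772 at 3.65 and 3.05 TPM and ZNF490 at 4.1 and 3.11 TPM in the 2 untreated libraries, and just outside were ZNF169 at 2.97 and 4.16 TPM, ZNF630 at 3.34 and 2.96 TPM and ZNF425 at 2.83 and 3.64 TPM.

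In the coding sequences of the annotation, 238 of the 363 genes held a KRAB pattern, 4 of these together with a SCAN pattern, and 12 had a SCAN pattern alone, a domain through which such proteins pair. Neither pattern was found in 112, and 1 gene, ZNF788, had no coding sequence. The median number of C2H2 fingers was 10, with a range of 0 to 33, and it was 12 in KRAB genes and 7 in genes with neither pattern. The KRAB genes were the lower in level, with a median of 7.61 TPM against 16.3 TPM for genes with neither pattern. Chromosome 19 held 183 of the members, among them 157 of the KRAB genes. Of these 183, 167 lay in 8 clusters, taken here as runs of at least 8 members in which neighbouring genes with a ZNF symbol were at most 500 kb apart.

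Summed over the 363 genes, the level was 6274 ± 13.4 TPM (SD, n = 2) in non-transfected cells and 6378 ± 494 TPM (SD, n = 2) in non-transfected cells with TGFb. After siRNA it was 5475 ± 126 TPM for FLASH, 5140 ± 223 TPM for NPAT and 5494 ± 458 TPM for SLBP without TGFb (SD, n = 2 each). With TGFb it was 5684 ± 12.7 TPM for FLASH, 5228 ± 101 TPM for NPAT and 5428 ± 24.0 TPM for SLBP (SD, n = 2 each). All 12 siRNA libraries, at 4982 to 5818 TPM, lay below all 4 non-transfected libraries, at 6029 to 6728 TPM. The untreated pair chose the members through the TPM floor, so the part of this gap that involves it is a description. In bulk RNA, fewer cells with a transcript and less of it per cell cannot be told apart.

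**Figure D1:**
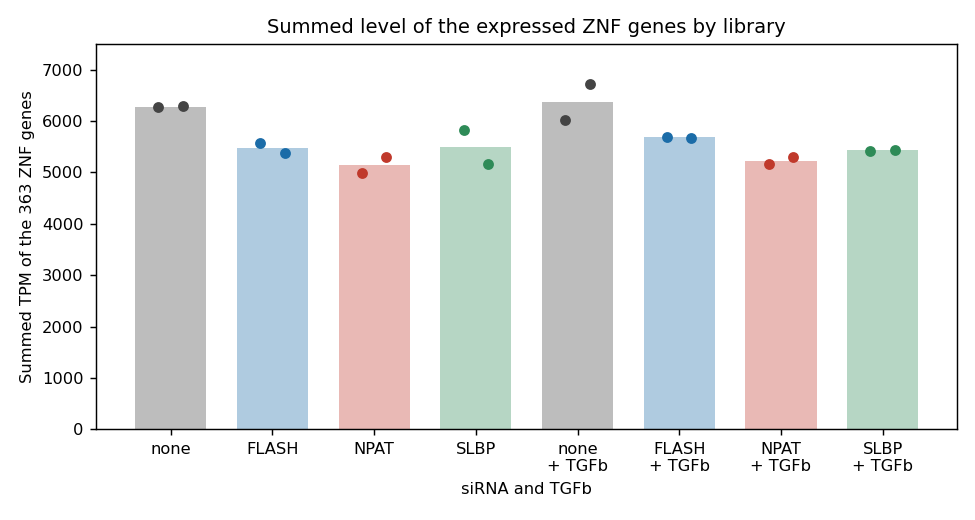
Summed TPM of the 363 ZNF genes (vertical axis) in the 16 libraries by siRNA and TGFb (horizontal axis); points are libraries and bars are means of 2. The 12 siRNA libraries lie at 4982 to 5818 TPM and the 4 non-transfected libraries at 6029 to 6728 TPM.

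With TGFb, the groups compared do not include the 2 libraries that set the floor, though these share in the scaling and the estimate of the spread. Each siRNA was tested against non-transfected cells with edgeR's quasi-likelihood test and Benjamini-Hochberg adjustment over 17743 genes, at a threshold of 0.05. After FLASH siRNA 70 of the 363 genes fell (19.3%) and 16 rose (4.41%), while 9.06% of all genes tested fell and 17.5% rose. After NPAT siRNA 95 fell (26.2%) and 3 rose (0.826%), against 10.3% and 13.7% of all genes. After SLBP siRNA 70 fell (19.3%) and 3 rose (0.826%), against 7.6% and 12.3% of all genes. Genes that share the TPM floor are the nearer background. Among these 11330 genes, 13.2% fell and 8.28% rose after FLASH siRNA, 15.1% and 8.72% after NPAT siRNA, and 11.0% and 6.24% after SLBP siRNA. The family thus had more falls and fewer rises than its background in all 3 comparisons, which share their controls.

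The median log2 fold change of the 363 genes was -0.161 after FLASH siRNA, -0.266 after NPAT siRNA and -0.219 after SLBP siRNA, against -0.0837, -0.0755 and -0.0681 for the genes with the same floor. Most of the falls were small: 4 genes called lower after FLASH siRNA, 14 after NPAT siRNA and 4 after SLBP siRNA were down by 2-fold or more. The family had been singled out with falls after FLASH and NPAT siRNA known, so these counts describe it and are no independent support. A replicate block, which the main fit lacks, gave more falls and more rises in each of these comparisons, with the counts in the closing section. The shares of other genes with that block are not given. The counts also rest on single libraries. Without the second TGFb-treated library of FLASH, NPAT or SLBP siRNA, 17, 22 and 14 genes were called lower, and without the second non-transfected library with TGFb, 26, 23 and 17. Without the first non-transfected library with TGFb, NPAT siRNA gave 52 and SLBP siRNA 33, and without the first siRNA library they gave 55 and 45. The medians moved less, to between -0.224 and -0.15 for FLASH, -0.288 and -0.239 for NPAT and -0.275 and -0.168 for SLBP siRNA when 1 library was left out.

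**Figure D2:**
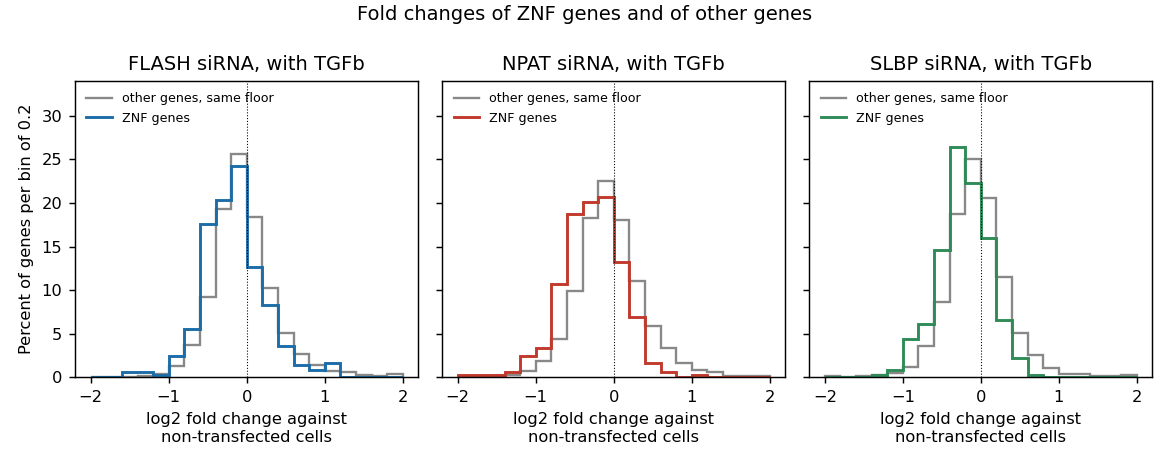
Share of genes (vertical axis, percent) by log2 fold change (horizontal axis, bins of 0.2; values beyond 2 are in the end bins) for the 363 ZNF genes in colour and the other genes with the same TPM floor in grey, for each siRNA against non-transfected cells with TGFb. The coloured outlines lie to the left of the grey ones; medians of the ZNF genes are -0.161, -0.266 and -0.219.

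After FLASH siRNA with TGFb the largest falls were in KRAB genes and 1 SCAN gene. Levels from here on are CPM in each library, counts scaled to library size as adjusted by the TMM method, with non-transfected cells with TGFb as the reference. ZNF25 (ENSG00000175395.15, chr10:37949572-37976633, minus strand) was at 11.1 and 11.1 CPM in the reference and 4.36 and 3.41 CPM after FLASH siRNA (log2 fold change -1.51, SE 0.22, adjusted p = 0.00041). ZNF624, a KRAB gene on chromosome 17, went from 9.51 and 10.9 to 3.87 and 3.38 CPM (log2 fold change -1.49, SE 0.20, adjusted p = 0.00027). Neither gene's libraries overlapped between the groups. ZNF285, a KRAB gene of cluster 5, went from 7.85 and 10.0 to 3.67 and 3.52 CPM (log2 fold change -1.31, SE 0.28, adjusted p = 0.0048). ZNF397, which pairs through its SCAN domain, went from 44.0 and 47.4 to 25.4 and 19.6 CPM (log2 fold change -1.02, SE 0.17, adjusted p = 0.0011). ZNF586 and ZNF485 followed with log2 fold changes of -1.0 (SE 0.20, adjusted p = 0.0034) and -0.96 (SE 0.24, adjusted p = 0.012). ZNF485 lost its call without the second FLASH siRNA library or the first reference library, at -0.85 and -0.83.

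FLASH siRNA was also the knockdown with the most rises. ZNF345 (ENSG00000251247.10, chr19:36850361-36913029, plus strand), a gene with 15 fingers and no KRAB pattern, was at 6.06 and 6.29 CPM in the reference and at 12.4 and 14.7 CPM after FLASH siRNA (log2 fold change 1.14, SE 0.23, adjusted p = 0.0036). After NPAT siRNA it was at 4.26 and 4.14 CPM and after SLBP siRNA at 7.90 and 8.39 CPM, and neither passed the test. Both FLASH libraries lay above every other library with TGFb. ZNF404, a KRAB gene of cluster 5, rose from 3.21 and 3.16 to 6.08 and 7.16 CPM (log2 fold change 1.05, SE 0.19, adjusted p = 0.0018). ZNF582, a KRAB gene of cluster 7, rose from 5.47 and 4.71 to 9.91 and 11.4 CPM (log2 fold change 1.07, SE 0.25, adjusted p = 0.0069), a call lost without the second reference library (0.96) or the second FLASH library (0.95). ZNF185, an actin-associated LIM protein that carries the ZNF name and has no C2H2 finger, rose from 130.5 and 90.5 to 215 and 256 CPM (log2 fold change 1.09, SE 0.23, adjusted p = 0.0043), and lost the call without the second reference library (0.85). The expected counts of ZNF404 were whole in none of the 16 libraries, so its reads were shared with other genes by the estimation.

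After NPAT siRNA with TGFb the largest fall of the family was in ZNF420 (ENSG00000197050.10, chr19:37007857-37130314, plus strand), a KRAB protein with 19 fingers known as a repressor of p53-dependent apoptosis genes. It was at 20.0 and 22.7 CPM in the reference, 18.6 and 20.5 CPM after FLASH siRNA, 18.4 and 16.1 CPM after SLBP siRNA and 5.67 and 5.38 CPM after NPAT siRNA (log2 fold change -1.95, SE 0.15, adjusted p = 1.2e-05). The NPAT libraries stood apart from the 6 others with TGFb. Its exons overlap other annotated genes on the opposite strand, and whether counting used strand is not given in the sources used here. The log2 fold change was -0.13 (SE 0.14, adjusted p = 0.55) after FLASH and -0.31 (SE 0.14, adjusted p = 0.15) after SLBP siRNA, and the direct differences passed the test: FLASH minus NPAT siRNA was 1.82 (SE 0.15, adjusted p = 7.7e-05) and NPAT minus SLBP siRNA was -1.65 (SE 0.15, adjusted p = 7.5e-05).

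ZNF586 (ENSG00000083828.15, chr19:57769655-57819939, plus strand) was at 12.5 and 11.8 CPM in the reference, 6.58 and 5.58 CPM after FLASH, 7.23 and 5.82 CPM after SLBP and 3.76 and 3.64 CPM after NPAT siRNA. It fell after all 3, with log2 fold changes of -1.0 (SE 0.20, adjusted p = 0.0034), -0.90 (SE 0.20, adjusted p = 0.009) and -1.71 (SE 0.21, adjusted p = 0.00028) in that order. Its exons overlap ZNF587B on the same strand and ZNF552 on the other, and its expected counts were whole in no library, so the 3 genes are not fully separate measurements. ZNF552, also KRAB, went from 8.04 and 6.93 to 3.39 and 2.57 CPM after NPAT siRNA (log2 fold change -1.33, SE 0.19, adjusted p = 0.00078). ZNF624 went to 4.14 and 3.18 CPM (log2 fold change -1.48, SE 0.21, adjusted p = 0.00055) and ZNF30, a KRAB gene of chromosome 19 outside the clusters, from 12.5 and 13.9 to 5.38 and 5.42 CPM (log2 fold change -1.29, SE 0.15, adjusted p = 0.00021). In each of these the NPAT libraries were the lower pair, without overlap. ZNF285 fell as well (log2 fold change -1.16, SE 0.28, adjusted p = 0.011), a call lost without the second reference library or either NPAT library, with values of -1.16 to -0.98.

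The 3 genes that rose after NPAT siRNA were ZNF117, ZNF839 and ZNF431. ZNF117, a finger gene that lies beside the endogenous retrovirus ERV3-1, was at 33.9 and 37.3 CPM in the reference and 69.1 and 82.2 CPM after NPAT siRNA (log2 fold change 1.09, SE 0.26, adjusted p = 0.01), against 39.6 and 36.3 CPM after FLASH and 39.3 and 34.8 CPM after SLBP siRNA. Its exons overlap ERV3-1 on the same strand, its expected counts were whole in no library, and the call was lost without either reference library or the second NPAT library (0.96 to 1.16). ZNF431, a KRAB gene of cluster 3, went from 12.7 and 13.4 to 17.9 and 18.4 CPM (log2 fold change 0.48, SE 0.10, adjusted p = 0.0068) and to 23.2 and 22.5 CPM after FLASH siRNA (log2 fold change 0.81, SE 0.10, adjusted p = 0.00018). ZNF839 rose after all 3 siRNAs, from 12.2 and 10.6 CPM to 16.9 and 17.1, 18.4 and 14.2 and 15.9 and 16.5 CPM after FLASH, NPAT and SLBP siRNA, with adjusted p of 0.013, 0.026 and 0.033 and log2 fold changes of 0.58, 0.52 and 0.51. The NPAT and SLBP calls of ZNF839 did not hold without a filter on low counts (0.50 and 0.49) or without some of the libraries (0.34 to 0.62). That of ZNF431 after NPAT siRNA did not hold without the filter (0.46) or the second NPAT library (0.47).

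After SLBP siRNA with TGFb 2 of the 3 lowest fold changes were in KRAB genes of cluster 6, ZNF813 and ZNF28, the other in ZNF285. ZNF813 (ENSG00000198346.10, chr19:53467735-53496255, plus strand) was at 26.1 and 27.0 CPM in the reference, 24.7 and 23.2 CPM after FLASH, 25.2 and 28.3 CPM after NPAT and 10.7 and 11.7 CPM after SLBP siRNA (log2 fold change -1.25, SE 0.12, adjusted p = 3.3e-05). ZNF28 (ENSG00000198538.10, chr19:52797409-52857600, minus strand) was at 30.6 and 30.6 CPM, 25.4 and 24.6 CPM, 31.7 and 35 CPM and 15.1 and 13.5 CPM in the same order (log2 fold change -1.10, SE 0.10, adjusted p = 3.1e-05). In both genes the 2 SLBP libraries were below all 6 others with TGFb, and NPAT minus SLBP siRNA was 1.26 (SE 0.12, adjusted p = 7.3e-05) for ZNF813 and 1.22 (SE 0.10, adjusted p = 4.0e-05) for ZNF28. ZNF28 overlaps exons of ZNF468 on the same strand, and the expected counts of ZNF813 were whole in 5 of 16 libraries.

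Other falls after SLBP siRNA were in ZNF285 (log2 fold change -1.18, SE 0.28, adjusted p = 0.013), ZNF678 (log2 fold change -1.0, SE 0.21, adjusted p = 0.0055), ZNF724 (log2 fold change -1.0, SE 0.27, adjusted p = 0.021) and ZNF367 (log2 fold change -0.99, SE 0.28, adjusted p = 0.029). ZNF367, which has 2 fingers and no KRAB pattern, was at 21.8 and 22.6 CPM in the reference, 12.3 and 10.1 CPM after SLBP siRNA and 25.5 and 29.4 CPM after FLASH siRNA, where it was not lower. The calls of ZNF724 and ZNF367 were lost whichever library was left out, with values of -1.11 to -0.89 and -1.13 to -0.85, that of ZNF285 without the second reference or second SLBP library (-0.99 and -0.83), and that of ZNF678 without the second SLBP library (-0.97). ZNF92, ZNF839 and ZNF276 rose. ZNF92, a KRAB gene, went from 15.0 and 17.1 to 22.4 and 25.7 CPM after SLBP siRNA (log2 fold change 0.58, SE 0.14, adjusted p = 0.013) and to 26.6 and 34.2 CPM after FLASH siRNA (log2 fold change 0.92, SE 0.14, adjusted p = 0.00055), and the SLBP call was lost without the first reference or second SLBP library (0.49 and 0.48). ZNF276, whose exons overlap FANCA and VPS9D1 on the other strand, went from 24.6 and 25.3 to 35.1 and 35.1 CPM (log2 fold change 0.49, SE 0.13, adjusted p = 0.017), a call lost whichever library was left out, at 0.48 to 0.51.

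**Figure D3:**
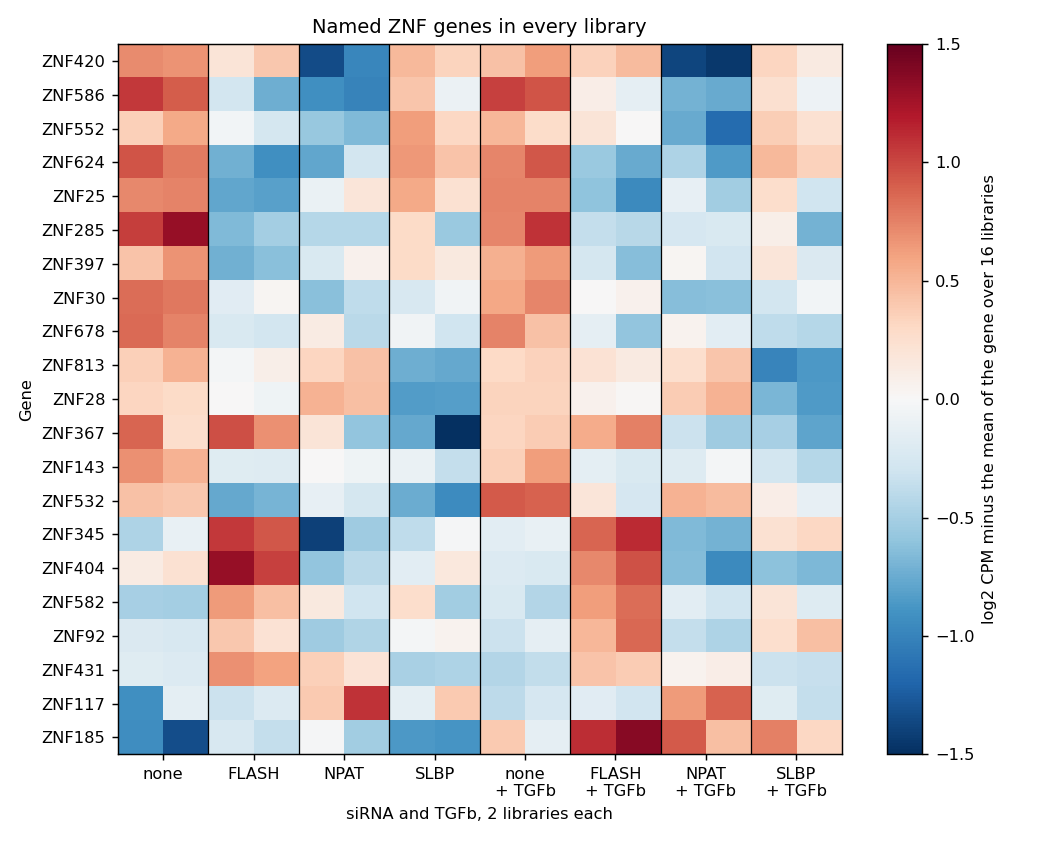
CPM of 21 ZNF genes (rows) in the 16 libraries (columns, 2 per group), shown as log2 CPM minus the gene's mean over all libraries, blue for low and red for high (colours end at 1.5). ZNF420 is low in the 4 NPAT siRNA libraries, ZNF813 and ZNF28 in the 4 SLBP siRNA libraries, and ZNF345 and ZNF404 are high in the 4 FLASH siRNA libraries.

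The 3 siRNAs gave different values along chromosome 19. Cluster 4 (chr19:36182060-37817300) holds 21 members, 18 of them KRAB genes, among them ZNF420, ZNF345, ZNF529 and ZNF566. After NPAT siRNA with TGFb all 21 had a negative log2 fold change, with a median of -0.556, and 10 fell. The same 21 genes had a median of -0.073 after FLASH siRNA, where 2 fell and 3 rose, and of -0.219 after SLBP siRNA, where 2 fell. The falls were 47.6%, 9.52% and 9.52% of the 21 after NPAT, FLASH and SLBP siRNA. Of genes with the same floor 15.1%, 13.2% and 11.0% fell, and of all genes 10.3%, 9.06% and 7.6%. The 3 rises were 14.3%, against 8.28% with the same floor and 17.5% of all genes. The log2 fold change after NPAT siRNA was -1.0 (SE 0.25, adjusted p = 0.013) for ZNF529, -0.78 (SE 0.14, adjusted p = 0.0024) for ZNF260, -0.75 (SE 0.14, adjusted p = 0.0031) for ZNF566 and -0.70 (SE 0.12, adjusted p = 0.0015) for ZNF569. The difference itself, FLASH minus NPAT siRNA with TGFb, passed the test in 11 of the 21 genes (52.4%), all higher after FLASH siRNA, where 9.09% of all genes and 8.08% with the same floor were, with a median of 0.604. Leaving out 1 library gave 4 to 8 falls after NPAT siRNA and 3 to 11 differences, while the medians stayed between -0.575 and -0.522 and between 0.472 and 0.703.

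Without TGFb, in other libraries of the same fit, which shares 1 estimate of the spread, FLASH minus NPAT siRNA passed the test in 12 of the 21 genes of cluster 4 (57.1%), all higher after FLASH siRNA, where 12.4% of all genes and 10.6% with the same floor were, with a median of 0.507 and 6 to 9 genes when 1 library was left out. NPAT minus SLBP siRNA was negative at the median both without TGFb (-0.374, with 5 genes lower and 0 higher) and with TGFb (-0.384, with 6 genes lower and 0 higher). Of all genes 7.11% and 6.61% were lower. With the spread estimated from the NPAT and SLBP groups alone, 0 of the 21 were called lower without TGFb and 3 with TGFb. With a replicate block 9 and 10 were called lower. Leaving out 1 library gave 1 to 5 genes lower without TGFb and 1 to 4 with TGFb, at medians of -0.482 to -0.164 and -0.535 to -0.317.

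Cluster 6 (chr19:51571298-53580269) showed another order. All of its 33 members are KRAB genes, among them ZNF28, ZNF813, ZNF845 and ZNF888. After SLBP siRNA with TGFb 16 fell and 32 had a negative log2 fold change, with a median of -0.444. After FLASH siRNA 11 fell, with a median of -0.325, and after NPAT siRNA 3 fell, with a median of -0.122. The falls were 48.5%, 33.3% and 9.09% of the 33 after SLBP, FLASH and NPAT siRNA. Of genes with the same floor 11.0%, 13.2% and 15.1% fell, and of all genes 7.6%, 9.06% and 10.3%. The log2 fold change after SLBP siRNA was -0.99 (SE 0.12, adjusted p = 0.00024) for ZNF845, -0.81 (SE 0.16, adjusted p = 0.0042) for ZNF888 and -0.73 (SE 0.16, adjusted p = 0.0083) for ZNF616. NPAT minus SLBP siRNA passed the test in 10 of the 33 with TGFb (30.3%) and in 13 without TGFb (39.4%), all higher after NPAT siRNA, where 5.77% and 8.88% of all genes and 6.53% and 9.57% with the same floor were. With the spread estimated from those 2 groups alone, 5 were called higher with TGFb and 0 without, at medians of 0.299 and 0.184. With a replicate block 14 were called higher in each. Leaving out 1 library gave 4 to 11 falls after SLBP siRNA, 3 to 9 after FLASH siRNA, and 3 to 8 and 8 to 10 differences between NPAT and SLBP siRNA. The medians stayed between -0.497 and -0.398 after SLBP siRNA and between -0.413 and -0.262 after FLASH siRNA.

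Other clusters had falls at shares above or below the background, or moved in mixed ways. After FLASH, NPAT and SLBP siRNA with TGFb 9.06%, 10.3% and 7.6% of all genes tested fell. With the same floor 13.2%, 15.1% and 11.0% fell. In cluster 1, of 12 genes, 1, 3 and 3 fell after FLASH, NPAT and SLBP siRNA with TGFb, with medians of -0.204, -0.344 and -0.211. Cluster 3, the 21 KRAB genes between chr19:19668796-24129961 that include ZNF91 and ZNF93, had medians of 0.0809 after FLASH, 0.0947 after NPAT and -0.136 after SLBP siRNA with TGFb. In cluster 2, of 17 genes, 0, 1 and 0 fell in that order, where the 1 is 5.88%. In cluster 8, of 33 genes, 11 fell (33.3%) and 2 rose (6.06%) after FLASH siRNA, where 8.28% of genes with the same floor rose. In that cluster 8 fell (24.2%) after NPAT siRNA and 6 fell (18.2%) after SLBP siRNA. The 11 falls after FLASH siRNA were as many as in cluster 6. The clusters were singled out after their values had been seen and neighbouring genes share sequence and, in part, exons, so they are described without a test of the cluster.

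**Figure D4:**
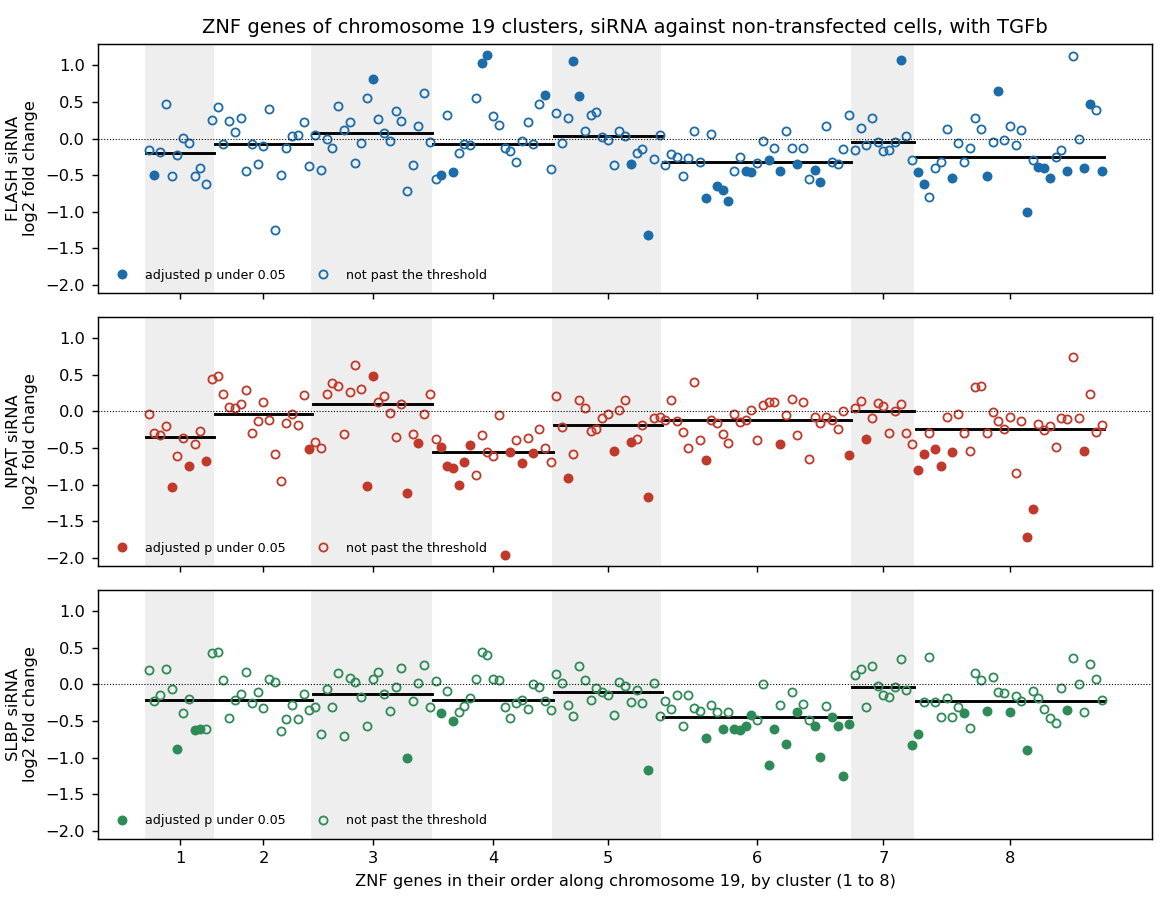
log2 fold change (vertical axes) of the 167 ZNF genes in 8 clusters, in their order along chromosome 19 (horizontal axis), for FLASH, NPAT and SLBP siRNA against non-transfected cells with TGFb. Filled points have an adjusted p under 0.05 and black bars are cluster medians, which are -0.556 for cluster 4 after NPAT siRNA and -0.444 for cluster 6 after SLBP siRNA.

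Compared directly with each other, the siRNA groups differed in ZNF genes in both directions, mostly at shares near or below those of genes with the same floor. The main exception was FLASH against NPAT siRNA with TGFb, where 11.6% of the 363 were higher, against 8.08% with the same floor. Without TGFb, 40 of the 363 genes were lower and 42 higher after FLASH than after NPAT siRNA, where 9.91% and 12.4% of all genes tested were. Against SLBP siRNA, 37 were lower and 48 higher after FLASH siRNA (10.8% and 15.3% of all genes). Between NPAT and SLBP siRNA, 33 were lower and 23 higher after NPAT siRNA (7.11% and 8.88%). With TGFb the counts were 12 lower and 42 higher for FLASH against NPAT (4.5% and 9.09%), 5 and 19 for FLASH against SLBP (4.73% and 8.3%), and 22 and 18 for NPAT against SLBP siRNA (6.61% and 5.77%). Among genes with the same floor the shares without TGFb were 13.5% and 10.6%, 14.2% and 12.6%, and 8.08% and 9.57%, and with TGFb 6.02% and 8.08%, 5.98% and 7.36%, and 6.82% and 6.53%, for the 3 pairs in that order. The counts are 11.0% and 11.6%, 10.2% and 13.2%, and 9.09% and 6.34% of the 363 without TGFb, and 3.31% and 11.6%, 1.38% and 5.23%, and 6.06% and 4.96% with TGFb, in the same order. In FLASH against NPAT siRNA the split depended on the scaling. With library totals in place of TMM the median of all genes moved from 0.00985 to 0.129 without TGFb and from 0.0343 to 0.116 with TGFb. The splits became 18 lower and 62 higher without TGFb and 6 and 52 with TGFb, and for FLASH against SLBP siRNA 21 and 53 without TGFb, while NPAT against SLBP siRNA with TGFb went to 17 and 19.

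The largest of these differences were in genes already named and a few more. FLASH minus NPAT siRNA without TGFb was 1.90 (SE 0.24, adjusted p = 0.00049) for ZNF345 and 1.66 (SE 0.20, adjusted p = 0.00034) for ZNF404. ZNF790, a KRAB gene of cluster 4, was at 10.9 and 10.8 CPM after FLASH siRNA and 3.24 and 4.49 CPM after NPAT siRNA, a difference of 1.49 (SE 0.23, adjusted p = 0.0011). FLASH minus SLBP siRNA without TGFb was 1.91 (SE 0.29, adjusted p = 0.00082) for ZNF367, at 34 and 28.0 CPM against 10.2 and 6.18 CPM. ZNF430, a KRAB gene of cluster 3, was at 13.0 and 9.80 CPM against 4.21 and 4.38 CPM in that pair, a difference of 1.41 (SE 0.26, adjusted p = 0.0024). On the other side, ZNF624 was lower after FLASH than after SLBP siRNA, with differences of -1.36 (SE 0.21, adjusted p = 0.00083) without TGFb and -1.07 (SE 0.20, adjusted p = 0.0065) with TGFb. NPAT minus SLBP siRNA without TGFb was 1.31 (SE 0.10, adjusted p = 1.3e-05) for ZNF28, 1.13 (SE 0.11, adjusted p = 7.8e-05) for ZNF813, 1.02 (SE 0.16, adjusted p = 0.0015) for ZNF468 and -1.56 (SE 0.15, adjusted p = 5.8e-05) for ZNF420. ZNF77 was at 4.98 and 4.06 CPM after NPAT and 14.2 and 6.81 CPM after SLBP siRNA without TGFb, a difference of -1.22 (SE 0.29, adjusted p = 0.014). With TGFb, FLASH minus NPAT siRNA was -0.62 (SE 0.16, adjusted p = 0.027) for ZNF362 and -0.59 (SE 0.13, adjusted p = 0.013) for ZNF32, and without TGFb it was -0.74 (SE 0.24, adjusted p = 0.044) for ZNF69. ZNF707, a low gene at 1.35 and 1.76 CPM after FLASH and 3.20 and 2.52 CPM after SLBP siRNA with TGFb, differed by -0.88 (SE 0.26, adjusted p = 0.041). With spread estimated from those 2 groups alone, 0 of the 363 passed for NPAT against SLBP siRNA without TGFb. The full edgeR fit had 99 of them at an unadjusted p under 0.05.

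Without TGFb, the comparison with non-transfected cells involves the libraries that chose the members, so its values are given without a test, and a gene is counted where it differed by 1.5-fold or more with no overlap between the 2 pairs of libraries. By this count 56 genes were lower and 14 higher after FLASH siRNA, where 9.42% and 23.1% of all genes were (9.88% and 8.07% with the same floor). After NPAT siRNA 80 were lower and 8 higher (10.2% and 21.6% of all genes, 10.6% and 10.1% with the same floor), and after SLBP siRNA 58 and 5 (9.06% and 18.4%, and 8.94% and 6.83%). The median log2 fold changes were -0.23, -0.277 and -0.239. ZNF285 was among the lowest after all 3, at 9.68 and 11.7 CPM in non-transfected cells and 2.98 and 3.31, 3.51 and 3.50 and 5.74 and 3.21 CPM after FLASH, NPAT and SLBP siRNA. ZNF586 was at 12.8 and 11.5 CPM and at 3.24 and 3.07 CPM after NPAT siRNA, and ZNF420 at 24.0 and 23.5 and 5.81 and 7.44 CPM. In all of these the siRNA libraries lay below the controls.

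Among the higher values without TGFb, ZNF345 stood at 4.93 and 6.28 CPM and at 14.2 and 12.9 CPM after FLASH siRNA. ZNF274, a KRAB and SCAN protein that recruits SETDB1 to the 3′ ends of ZNF genes themselves, stood at 27.1 and 20.4 CPM and at 51.4 and 46.8 CPM after FLASH siRNA and 58.0 and 31.4 CPM after NPAT siRNA. With TGFb it was at 23.5 and 17.0 CPM in the reference and 43.3 and 44.8 CPM after FLASH siRNA, which did not pass the test (log2 fold change 1.12, SE 0.40, adjusted p = 0.054). The 2 SLBP siRNA values of ZNF367, 10.2 and 6.18 CPM against 31.9 and 20.8 CPM, gave the lowest log2 value after SLBP siRNA, -1.68. ZNF860 was among the higher ones after SLBP siRNA, at 24.9 and 31.3 CPM against 11.1 and 19.1 CPM. So were ZNF358, ZNF608 and ZNF189, with log2 values of 0.81, 0.81 and 0.62. ZNF90 was among the lower ones, at 6.19 and 3.81 CPM against 13.2 and 10.8 CPM.

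TGFb moved few ZNF genes. It changed 0 genes downwards and 8 upwards in FLASH siRNA cells (0.755% and 3.35% of all genes), 3 and 6 in NPAT siRNA cells (1.92% and 3.42%) and 6 and 12 in SLBP siRNA cells (4.51% and 8.07%). Among genes with the same floor the shares were 0.83% and 2.97%, 2.19% and 2.9%, and 5.25% and 7.09%. The fit for FLASH siRNA cells had 43 of the 363 genes at an unadjusted p under 0.05, and the fits for NPAT and SLBP siRNA cells had 29 and 53. In non-transfected cells, by the description with 1.5-fold and no overlap, 2 genes were lower and 8 higher (6.48% and 8.75% of all genes, 3.09% and 4.53% with the same floor). Small shifts by cluster are outside these counts. In non-transfected, FLASH, NPAT and SLBP siRNA cells, cluster 2 had medians of -0.37, -0.278, -0.23 and -0.203, and cluster 3 of -0.205, -0.181, -0.144 and -0.16. Cluster 4 had 0.0529, 0.109, 0.107 and 0.125, and the other clusters had medians of both signs. These were picked after their values were seen and not tested. The shares of called genes in the family are at or below the background. Leaving out 1 library gave 1 to 6, 2 to 6 and 11 to 34 genes in FLASH, NPAT and SLBP siRNA cells, the 34 without the first SLBP siRNA library.

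ZNF185 was the clearest riser. It was at 52.4 and 39.6 CPM without and 130.5 and 90.5 CPM with TGFb in non-transfected cells, 84.2 and 77.7 and then 215 and 256 CPM in FLASH siRNA cells (log2 fold change 1.54, SE 0.23, adjusted p = 0.0022), 98.6 and 69.5 and then 189 and 137 CPM in NPAT siRNA cells (log2 fold change 0.95, SE 0.23, adjusted p = 0.031) and 54.9 and 54.1 and then 169 and 124 CPM in SLBP siRNA cells (log2 fold change 1.42, SE 0.23, adjusted p = 0.0016). Its libraries did not overlap in any of the 4. ZNF697 rose in all 3 siRNA groups, with log2 fold changes of 0.98 (SE 0.24, adjusted p = 0.039), 1.0 (SE 0.25, adjusted p = 0.034) and 1.2 (SE 0.24, adjusted p = 0.0053) for FLASH, NPAT and SLBP siRNA. ZNF34, a KRAB gene, rose in all 3 as well, with log2 fold changes of 1.2 (SE 0.23, adjusted p = 0.009), 0.99 (SE 0.23, adjusted p = 0.026) and 1.08 (SE 0.22, adjusted p = 0.0071). ZNF251 rose in FLASH siRNA cells, from 1.69 and 2.21 to 4.03 and 4.22 CPM (log2 fold change 1.08, SE 0.22, adjusted p = 0.015). ZNF532 also rose in all 3, with log2 fold changes of 0.71, 0.69 and 0.83. The calls of ZNF185 in NPAT siRNA cells and of ZNF34 in each group were lost when certain libraries were left out, at 0.72 and 0.73 for ZNF185 and 0.74 to 1.06 for ZNF34.

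The main faller was ZNF217, an oncogenic partner of the CtBP and LSD1 repressor complex. It went from 389.5 and 446 to 198 and 216 CPM with TGFb in NPAT siRNA cells (log2 fold change -1.01, SE 0.16, adjusted p = 0.0021) and from 316 and 399 to 164 and 150.2 CPM in SLBP siRNA cells (log2 fold change -1.19, SE 0.16, adjusted p = 0.00029). In FLASH siRNA cells it was at 259.8 and 284 and 190.1 and 171 CPM, which did not pass (log2 fold change -0.59, SE 0.15, adjusted p = 0.055). ZNF608 fell in SLBP siRNA cells, from 75.4 and 104 to 37.4 and 43.0 CPM (log2 fold change -1.15, SE 0.21, adjusted p = 0.0031). In non-transfected cells without TGFb ZNF608 was at 44.2 and 58.1 CPM, below both SLBP siRNA libraries without TGFb. ZNF395 fell in SLBP siRNA cells too (log2 fold change -0.74, SE 0.21, adjusted p = 0.037). ZNF101 and ZNF784 fell in NPAT siRNA cells, with log2 fold changes of -0.61 and -0.72. Whether the TGFb effect differed between siRNA groups was not tested.

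By protein class, the KRAB genes fell in 17.6%, 29% and 19.7% of 238 cases after FLASH, NPAT and SLBP siRNA with TGFb, and genes with neither pattern in 20.5%, 20.5% and 18.8% of 112. As background, 9.06%, 10.3% and 7.6% of all genes tested fell. Among genes with the same floor 13.2%, 15.1% and 11.0% fell and 8.28%, 8.72% and 6.24% rose. Of the 12 SCAN genes 5, 3 and 2 fell and 0 rose. Of 81 KRAB genes outside chromosome 19, 33 fell after NPAT siRNA, with a median of -0.378, against 36 of 157 on it, with a median of -0.272, and 16 and 18 of the 81 fell after FLASH and SLBP siRNA. Among the 289 genes whose expected counts were whole in every library, 59, 83 and 58 fell and 11, 1 and 3 rose, with medians of -0.188, -0.279 and -0.222. In the other 74, whose reads were partly shared with other genes, 11, 12 and 12 fell and 5, 2 and 0 rose, with medians of -0.0904, -0.169 and -0.189. Exons of 193 of the 363 genes overlapped another gene, 100 on the same strand and 121 on the other.

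Members with established roles outside KRAB silencing fell in several cases, from lists chosen with earlier results known. Of all 363 members 19.3%, 26.2% and 19.3% fell after FLASH, NPAT and SLBP siRNA with TGFb, and of genes with the same floor 13.2%, 15.1% and 11.0%. ZNF143, an activator of snRNA and many mRNA promoters, was at 49.3 and 59.2 CPM in the reference with TGFb and at 34.9 and 32.9, 33.5 and 37.7 and 31.7 and 28.5 CPM after FLASH, NPAT and SLBP siRNA. All 6 siRNA libraries were below both controls, and it fell, with log2 fold changes of -0.68 (SE 0.12, adjusted p = 0.0017), -0.61 (SE 0.12, adjusted p = 0.0048) and -0.85 (SE 0.12, adjusted p = 0.0007). ZNF146 fell after all 3, with log2 fold changes of -0.49 (SE 0.13, adjusted p = 0.014), -0.48 (SE 0.13, adjusted p = 0.017) and -0.39 (SE 0.13, adjusted p = 0.049). Of the 7 factors of this list, ZNF148 and ZNF281, which bind GC-rich promoters, fell after FLASH and SLBP siRNA, ZNF384 and ZNF410 passed in no comparison, and 4, 2 and 4 fell in all.

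Of the 6 genes with SUMO and chromatin roles 4, 3 and 2 fell after FLASH, NPAT and SLBP siRNA and 0 rose, where 19.3%, 26.2% and 19.3% of all 363 members fell. ZNF532, a partner of ZMYND8, was at 178 and 174 CPM in the reference, 107 and 79.1 CPM after FLASH (log2 fold change -0.92, SE 0.13, adjusted p = 0.00037), 136 and 131 CPM after NPAT (log2 fold change -0.40, SE 0.13, adjusted p = 0.044) and 101 and 86.3 CPM after SLBP siRNA (log2 fold change -0.91, SE 0.13, adjusted p = 0.00066). ZNF592, of the same complex, fell after FLASH and NPAT siRNA, and ZNF644, a partner of the methyltransferases EHMT1 and EHMT2, after FLASH and SLBP siRNA, where its log2 fold change was -0.44 (SE 0.11, adjusted p = 0.012) and -0.60 (SE 0.11, adjusted p = 0.0031), against -0.01 (SE 0.11, adjusted p = 0.96) after NPAT siRNA. ZNF451, a SUMO ligase, fell after FLASH siRNA and ZNF827, which brings the NuRD complex to telomeres, after NPAT siRNA, while ZNF687 passed in none of the 3. Of the 6 genes with RNA, ribosome and spindle roles 1, 1 and 2 fell, and ZNF598, a ubiquitin ligase for collided ribosomes, and ZNF622, a factor of the large ribosomal subunit, were not among them. ZNF638, which binds DNA and works with the HUSH silencing complex, fell after FLASH and SLBP siRNA, with log2 fold changes of -0.50 (SE 0.13, adjusted p = 0.014) and -0.61 (SE 0.13, adjusted p = 0.0066). ZNF326, part of the DBIRD complex at RNA polymerase II, fell after NPAT and SLBP siRNA, with log2 fold changes of -0.45 (SE 0.10, adjusted p = 0.0082) and -0.47 (SE 0.10, adjusted p = 0.0073).

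The 5 KRAB repressors of the list, ZNF10, ZNF91, ZNF93, ZNF224 and ZNF274, did not pass the edgeR test in the 3 comparisons, and the lowest adjusted p was 0.054 for ZNF274 after FLASH siRNA. ZNF91, which silences SVA elements, was at 20.6 and 24.5 CPM in the reference and 18.8 and 16.2, 17.6 and 18.7 and 18.7 and 19.9 CPM after FLASH, NPAT and SLBP siRNA, below it in all 6 libraries. ZNF93, which silences LINE-1 elements, was at 7.33 and 5.57 CPM and 9.25 and 8.30, 9.06 and 7.35 and 7.35 and 7.04 CPM. ZNF224 was at 19.5 and 21.5 CPM and 19.3 and 21.1 CPM after FLASH siRNA (log2 fold change -0.02, SE 0.19, adjusted p = 0.95).

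Of 26 co-repressor and heterochromatin genes listed, 25 were tested, and 1 fell and 3 rose after FLASH siRNA with TGFb, 3 fell after NPAT siRNA and 3 fell after SLBP siRNA, with medians of 0.0105, -0.0115 and -0.0702. Over all genes 9.06% fell and 17.5% rose after FLASH siRNA, and 10.3% and 7.6% fell after NPAT and SLBP siRNA. CBX5, an HP1 protein, rose after FLASH siRNA (log2 fold change 0.46, SE 0.09, adjusted p = 0.0026) and fell after SLBP siRNA (-0.62, SE 0.09, adjusted p = 0.00071). TRIM28 itself was at 462 and 530 CPM in the reference and 384.5 and 409 CPM after NPAT siRNA (log2 fold change -0.32, SE 0.11, adjusted p = 0.047), and its values after FLASH and SLBP siRNA did not pass. DNMT1, the maintenance DNA methyltransferase, fell after NPAT siRNA (-0.38, SE 0.09, adjusted p = 0.0089) and SLBP siRNA (-0.59, SE 0.09, adjusted p = 0.00078). CHD4 and ATF7IP rose and SMARCAD1 fell after FLASH siRNA, UHRF1 fell after NPAT siRNA and TRIM33 fell after SLBP siRNA.

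Other zinc finger families with the same floor held fewer genes. Of 25 ZBTB genes, which pair fingers with a BTB domain, 11, 13 and 7 fell and 1 rose in each comparison with TGFb, with medians of -0.378, -0.417 and -0.259. Of 11 ZFP genes 3, 5 and 2 fell, of 13 ZSCAN genes 3, 2 and 0, and of 6 ZKSCAN genes 2, 2 and 0, and none of these rose. Of all genes with the floor 13.2%, 15.1% and 11.0% fell and 8.28%, 8.72% and 6.24% rose, and of the 363 ZNF genes 19.3%, 26.2% and 19.3% fell. Falls were thus also found outside the ZNF symbol. The ZBTB medians lay below those of the 363 ZNF genes, which were -0.161, -0.266 and -0.219. Whether the families differ was not tested.

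The long ZNF143 form and CCGGAAG were about as frequent in members that fell as in the rest, while CCAAT was less frequent for FLASH and SLBP siRNA. The long ZNF143 form was in 17.7% of the promoters of genes that fell after FLASH siRNA and 12.9% of the others, in 14.8% and 13.5% for NPAT siRNA, and in 11.7% and 14.3% for SLBP siRNA. The 44 genes that carry it had median log2 fold changes of -0.151, -0.284 and -0.224 after FLASH, NPAT and SLBP siRNA, against -0.158, -0.268 and -0.222 for the 274 without it. CCGGAAG was in 45.2% and 42.2%, 44.3% and 42.2%, and 43.3% and 42.6% of the promoters of genes that fell and of the others, in the same order. Both strings were more frequent in KRAB genes, at 16.8% and 46.6%, than in genes with neither protein pattern, at 8.0% and 35%. A match is not a bound site, and no test was made.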

How the data were processed

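The deposited table holds, for 58219 genes and 16 PANC-1 libraries, expected counts, TPM and gene lengths that the authors made with RSEM 1.2.31 after STAR 2.4.2a on GRCh38.p10, per the submitters' processing notes; libraries were TruSeq Stranded mRNA (poly(A) selected), per the labels' protocols. The gene annotation and the strand setting are not given in the sources used here. The deposited expected counts are estimated counts that RSEM shares among genes with common reads, and were rounded; the deposited TPM values, which the authors scaled by length and depth, were used as they are for levels and for the floor of 3. The deposited gene length is in bases. The 32 FPKM and effective length columns were not used. An expected count was called whole within 0.005.

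edgeR 4.0.16 (R 4.3.3) fitted 1 quasi-likelihood model over the 8 groups with TMM scaling to the 17743 genes kept by filterByExpr, among them all 363 members, with 8 residual degrees of freedom; fold changes are log2. Alternatives were DESeq2 1.42.0 and its size factors, library totals, no filter, a replicate block, only the 2 groups compared, and each library left out; leaving one out leaves a group with 1 library, assumed to vary like the others. Gene coordinates, KRAB, SCAN and finger patterns (in translated coding sequences, since no protein table was used) come from GENCODE 29, to which all 363 IDs matched, 342 with the same version; promoters come from RefSeq. The model was tested on simulated data.

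The members and gene lists were chosen with earlier results of these data known. Named are the 5 members with the highest TPM, those with the largest fold changes past the threshold without overlap in each comparison (6 lowest and 4 highest for siRNA with TGFb, 5 and 4 without, 3 and 3 otherwise), the 3 nearest on each side of the floor, and listed genes with known roles; ZNF529, ZNF260, ZNF566, ZNF569, ZNF845, ZNF888, ZNF616 and ZNF519 were picked after their values were seen.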

Additional observations from a re-analysis of the deposited data

Results flagged for a closer look

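ZNF519, a KRAB gene on chromosome 18, moved in opposite directions after 2 siRNAs with TGFb, both past the threshold. It was at 8.72 and 9.88 CPM in non-transfected cells, 12.3 and 16 CPM after FLASH siRNA (log2 fold change 0.60, edgeR adjusted p = 0.02) and 5.96 and 5.82 CPM after NPAT siRNA (-0.66, adjusted p = 0.017). FLASH minus NPAT siRNA was 1.26 (SE 0.17, edgeR adjusted p = 0.0013), and without TGFb it was 0.95 (SE 0.17, adjusted p = 0.003).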

How the results depend on the processing

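Counts of called members rest on few libraries. Leaving out 1 library gave 17 to 52 genes lower and 6 to 14 higher after FLASH siRNA with TGFb, 22 to 55 and 1 to 2 after NPAT siRNA, and 14 to 45 and 0 to 2 after SLBP siRNA. It gave 1 to 6, 2 to 6 and 11 to 34 genes changed by TGFb in FLASH, NPAT and SLBP siRNA cells. Between siRNAs it gave 23 to 55 (FLASH and NPAT), 26 to 87 (FLASH and SLBP) and 28 to 55 (NPAT and SLBP) without TGFb, and 8 to 37, 5 to 17 and 7 to 23 with TGFb. The described medians without TGFb were -0.239 to -0.217 for FLASH, -0.294 to -0.257 for NPAT and -0.314 to -0.163 for SLBP siRNA. Deviations of same-numbered libraries correlated positively in all 28 pairs of groups, by 0.0504 to 0.528, and by over 0.1 in 25 of them. The labels do not say what a number shares, and whether same-numbered libraries share an effect was not tested. The main fit has no block, although the correlations were positive throughout. With a replicate block the counts lower and higher were 118 and 27 for FLASH, 163 and 13 for NPAT and 112 and 6 for SLBP siRNA, the counts changed by TGFb 19, 21 and 40, and the counts between siRNAs 141, 130 and 97 without and 103, 81 and 82 with TGFb. With only the 2 groups compared, which leaves fewer libraries for the spread, TGFb gave 14, 2 and 4 genes, the pairs without TGFb 50, 24 and 0, and NPAT against SLBP siRNA with TGFb 21. FLASH against SLBP siRNA with TGFb gave 37 genes with library totals and 38 with DESeq2, and library totals moved the described medians to -0.182 for FLASH and -0.348 for NPAT siRNA; the cause was not tested. With library totals the splits lower and higher were 48 and 18 for FLASH siRNA with TGFb, 2 and 35 for FLASH against SLBP siRNA with TGFb, 39 and 19 for NPAT against SLBP siRNA without TGFb, and 10 and 11 for TGFb in SLBP siRNA cells. Over all alternatives the members' median with TGFb, a summary added after the data were seen, was -0.224 to -0.107 for FLASH, -0.293 to -0.239 for NPAT and -0.275 to -0.168 for SLBP siRNA. For 79 results of named genes, 445 of 474 alternatives that kept all libraries and 217 of 316 that left one out kept direction and call, the other 29 and 99 lost the call, and 0 reversed; 35 of the 79 kept the call in every alternative.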
